A study of Mus musculus with 18 samples.

Results

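The genes described here are those of blood clotting and complement, the protease cascades whose proteins the liver secretes into plasma. A list of 39 gene symbols was matched to the Ensembl identifiers of the count table, and 38 were found among its 28030 genes. Klkb1 was not matched and is not analysed here. By role, the 38 genes comprise 6 coagulation proteases (F2, F7, F9, F10, F11, F12), 2 cofactors (F5, Kng1), 4 genes of the fibrin clot (Fga, Fgb, Fgg, F13b), 3 anticoagulants (Proc, Serpinc1, Serpind1) and 5 genes of fibrinolysis and its control (Plg, Serpinf2, Cpb2, Hrg, Vtn). The complement genes are 8 of the classical and lectin pathway (C1ra, C1s1, Mbl1, Mbl2, Masp1, Masp2, C4b, C2), 2 of C3 and the alternative pathway (C3, Cfb), 6 of the membrane attack complex (Hc, C6, C8a, C8b, C8g, C9) and 2 regulators (Cfi, C4bp).

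RNA was sequenced from hepatocytes of wild-type male C57BL/6J mice aged 12 weeks on normal chow, collected from the pericentral (PC) or the periportal (PP) side of the liver lobule after perfusion with digitonin, a detergent that permeabilises the cells it reaches first. Every mouse, controls included, had been trained for 3 days on 16 h of overnight fasting and 8 h of daytime feeding, and had drinking water with 20% sucrose on the day of the experiment. Each zone was sampled in 3 states with 3 libraries each, 18 libraries in all. Fed mice were killed at clock hour 13 after 4 h of feeding. The 8 h fasted mice were killed at clock hour 21 and the 24 h fasted mice at clock hour 13 on the following day. Fasting and clock hour therefore cannot be told apart at 8 h against fed or at 24 h against 8 h. The labels do not say that the libraries of a group came from separate mice, so the p-values measure the spread between these samples, which may be technical. They also do not say whether both zones of a number came from 1 mouse.

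In the clotting cascade, zymogen proteases activate one another in sequence until thrombin, the product of F2, converts fibrinogen to fibrin, and plasmin, the product of Plg, later dissolves the clot. In complement, the classical and lectin routes begin with C1 or the mannose-binding lectins and their proteases, converge with the alternative route on cleavage of C3, and end in the membrane attack complex. Hepatocytes are the main source of most of these plasma proteins. Fibrinogen is also an acute-phase protein, whose genes are induced in hepatocytes by interleukin 6 through STAT3, and several clotting factors need vitamin K dependent carboxylation by the product of Ggcx before secretion.

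The libraries held 18359911 to 26384358 estimated counts, and the 38 genes took 3.11% to 7.03% of them in PC and 3.89% to 5.60% in PP libraries. The 6 pericentral and 6 periportal marker genes checked were each called in the labelled direction over the mean of the 3 states. Replicate 2 of PC at 24 h stood apart, with 111 CPM (counts scaled to a common library total) of the pericentral gene Glul where its 2 fellow replicates had 928 and 707 CPM. Saa1, an acute-phase gene, was at 1611 to 3234 CPM in 3 libraries (replicate 3 of fed PC, replicate 1 of 8 h PC and replicate 3 of 24 h PP) and at 11.8 to 272 CPM in the other 15. Results that rest on these 3 libraries are also given without them, a setting added after the data were seen. Markers of other cells were low, and their summed levels overlapped between the zones. Those called over the mean of the 3 states were all higher in PP, where 10.3% of all genes were called higher. Summed sinusoidal endothelial markers ranged from 3.94 to 12.3 CPM in PC and from 4.56 to 40.4 CPM in PP (6 of 7 tested genes called higher), and Kupffer cell and leukocyte markers from 0.558 to 6.03 and from 0.888 to 22.5 CPM (5 of 8). For stellate cells the sums were 1.07 to 6.33 and 1.29 to 17.7 CPM (1 of 4). Cholangiocyte markers summed to 20.1 to 38.9 and 33.5 to 57.9 CPM, with 2 of 4 called higher and Epcam at 0 in every library. Platelet markers summed to 0.669 to 2.05 and 0.808 to 3.03 CPM, with 1 of 2 called higher and Gp9 at 0. Erythrocyte markers, which reached the highest of these sums, came to 38.1 to 66.7 and 32.0 to 92.1 CPM with 2 of 5 called higher. At 8 h the erythrocyte sums were lower in PP (45.3 to 55.9 CPM) than in PC (57.1 to 66.7 CPM). The 6 general hepatocyte markers summed to 60248 to 104055 CPM in PC and 114191 to 191039 CPM in PP without overlap, and 2 of the 6, Alb and Apob, were called higher. The part of these marker differences in the zone differences below was not tested.

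Levels were compared between genes per kilobase of the principal annotated transcript, as the median over the 18 libraries. C3 was the most abundant at 2218 CPM per kilobase, followed by Vtn (1365), Fga (1345), Fgg (1241), Kng1 (1081) and F2 (1002). The lowest were Masp1 (25.04), Mbl1 (15.9), F11 (14.7) and Proc (8.30). The substrates of both cascades, C3 and fibrinogen, therefore stood near the top of this order. Protease genes stood at both ends: F2 and Plg (ranks 6 and 7) were above Fgb (rank 8), and Masp1, F11 and Proc were near the foot. The order thus did not separate substrates from proteases. Neighbours in the order are not distinguished by it: Vtn ranged from 780 to 1798 CPM per kilobase and Fga from 705 to 4717 across libraries. The annotated length may not be that of the RNA present.

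The first comparison asked which of these genes differed between the zones. Over the mean of the 3 states, 19 of the 38 genes were called by the quasi-likelihood F test of edgeR at an adjusted p under 0.05, 18 of them higher in PP and 1, C6, lower. Of all 12477 genes tested 20.3% were called, 10.3% as higher and 9.96% as lower in PP. The PP over PC log2 fold change was above 0 for 32 of the 38 genes, with a median of 0.34 against 0.00 over all genes tested. The calls covered 9 of 20 clotting and fibrinolysis genes and 10 of 18 complement genes. In such bulk samples, fewer cells of a type and less RNA per cell cannot be told apart.

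**Figure D1:**
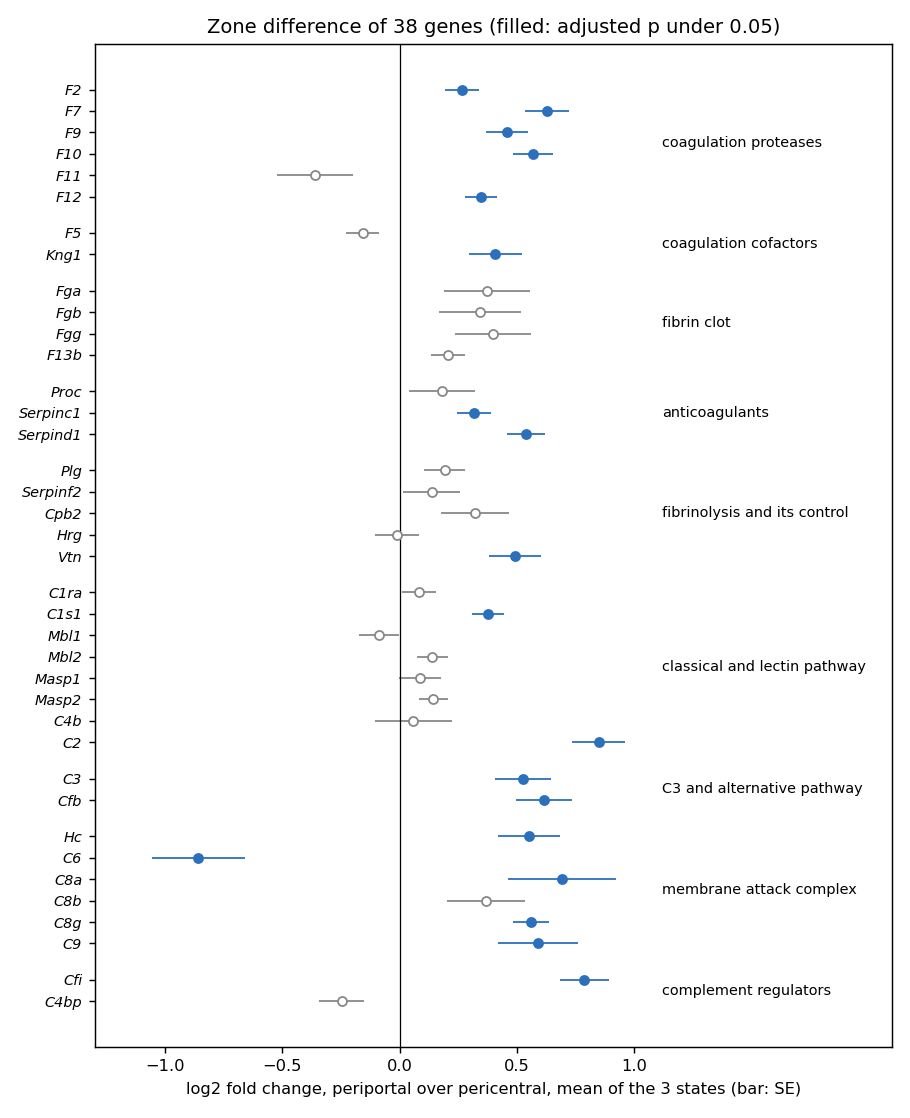
PP over PC log2 fold change of each of the 38 genes over the mean of the 3 states, grouped by role. Points are edgeR estimates, bars their standard errors (SE), and filled points have an adjusted p under 0.05. The 18 genes called higher in PP lie between 0.27 and 0.85, and C6 lies at -0.86.

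Among the proteases, 5 of 6 were called higher in PP. F7, which starts clotting together with tissue factor, had a log2 fold change of 0.63 (SE 0.09, edgeR adjusted p 0.000106). F10, the protease that activates prothrombin, had 0.57, F9 had 0.46, F12 of the contact pathway 0.35 and prothrombin F2 0.27. F11 was at -0.36 without a call (SE 0.16). Of the cofactors, Kng1 (kininogen) was higher at 0.41, whereas F5 was at -0.16 and not called. The fibrin clot group had 0 of 4 called over this mean (Fga 0.37, Fgb 0.34, Fgg 0.40 and F13b 0.20). F13b, the carrier subunit of the enzyme that cross-links fibrin, had an adjusted p of 0.0551 by edgeR. Anticoagulants were called in 2 of 3 cases, Serpind1 (heparin cofactor II) at 0.54 and Serpinc1 (antithrombin) at 0.32, and Proc (protein C) was at 0.18. In the fibrinolysis group only Vtn, vitronectin, was called (0.49). Plg was at 0.19, Serpinf2 at 0.14, Cpb2 at 0.32 and Hrg at -0.01. The zone difference thus included factors that promote clotting and factors that restrain it.

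In complement, the classical and lectin group had 2 of 8 called. C2, the protease subunit of the classical C3 convertase, lies at chr17:34862604-34898265 (GRCm38, ENSMUSG00000024371). It measured 63.1, 64.3 and 83.6 CPM in fed PC libraries and 151.6, 118.8 and 113.6 CPM in fed PP libraries. At 8 h its levels were 79.8, 80.3 and 56.3 CPM in PC and 118.1, 153.9 and 148.3 CPM in PP. At 24 h they were 79.2, 80.1 and 78.8 CPM in PC and 135.6, 90.0 and 167.0 CPM in PP. Every PP library was above every PC library, and the PP excess was 0.85 on the log2 scale (SE 0.11, adjusted p 5.03e-05 by edgeR). C1s1, a protease of the C1 complex, was the other call (0.38). The lectins Mbl1 (-0.09) and Mbl2 (0.14), their proteases Masp1 (0.09) and Masp2 (0.14), C1ra (0.08) and C4b (0.06) were not called. C3, the hub of the cascade, was higher in PP by 0.53 (SE 0.12, edgeR adjusted p 0.00393), with 7525 to 13375 CPM in PC and 10506 to 18294 CPM in PP libraries, and Cfb, the protease of the alternative convertase, by 0.62.

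Cfi, the protease that inactivates the C3 and C4 fragments, lies at chr3:129835884-129875332 (ENSMUSG00000058952). It measured 378.2, 392.8 and 559.4 CPM in fed PC and 792.8, 647.0 and 728.7 CPM in fed PP libraries. At 8 h it was at 530.2, 426.5 and 449.5 CPM in PC and 692.3, 1019 and 867.5 CPM in PP. At 24 h it was at 486.3, 547.9 and 443.3 CPM in PC and 779.7, 719.0 and 1044 CPM in PP. Again no PP library fell within the PC range, and the PP excess was 0.79 on the log2 scale (SE 0.10, adjusted p 3.56e-05 by edgeR). C4bp, a cofactor of Cfi, was at -0.25 without a call.

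The membrane attack complex held both directions. Hc, which encodes C5, was higher in PP by 0.55, C8g by 0.56, C9 by 0.59 and C8a by 0.69, whereas C8b (0.37) was not called. C6, at chr15:4727175-4814967 (ENSMUSG00000022181), was lower in PP. It measured 182.6, 169.4 and 241.2 CPM in fed PC and 140.7, 90.1 and 90.0 CPM in fed PP libraries. At 8 h it was at 299.7, 378.3 and 254.3 CPM in PC against 134.6, 149.6 and 99.3 CPM in PP. At 24 h it was at 225.2, 96.3 and 104.0 CPM in PC against 112.5, 63.8 and 143.9 CPM in PP. The zones did not overlap in fed and 8 h mice and overlapped at 24 h, where 1 PC library was high. The log2 fold change of C6 was -0.86 (SE 0.20, edgeR adjusted p 0.00626).

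**Figure D2:**
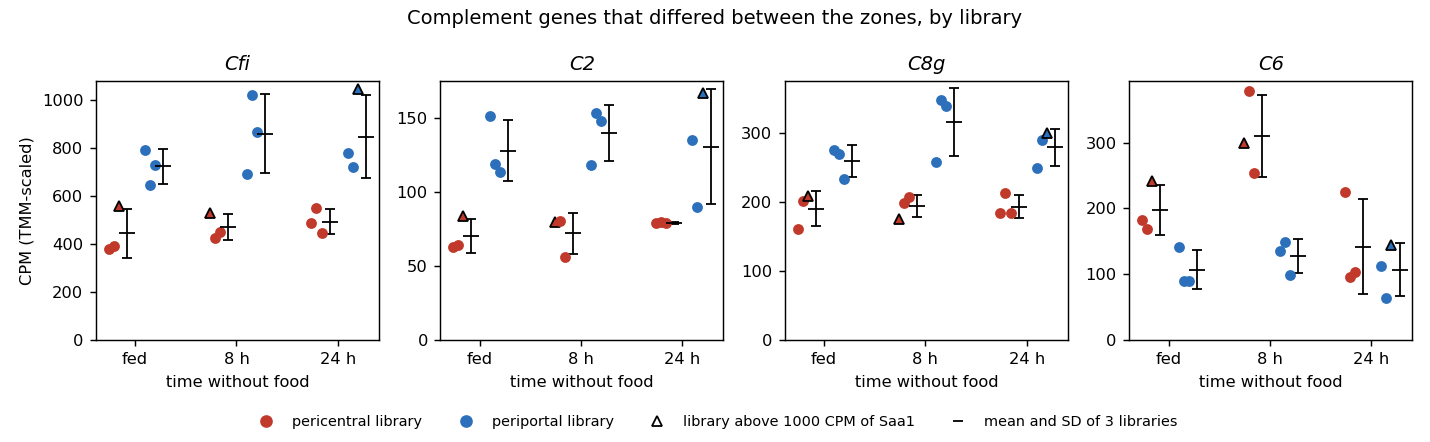
TMM-scaled CPM of Cfi, C2, C8g and C6 in each library by state, with PC in red and PP in blue, and the mean and standard deviation (SD) of 3 libraries beside them. Triangles mark the 3 libraries above 1000 CPM of Saa1. Cfi, C2 and C8g show all PP points above all PC points, and C6 the reverse order in fed and 8 h mice.

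Over all states, 6 of the 38 genes had 9 PP libraries above all 9 PC libraries, against 1.27% of all genes tested, and 0 had the reverse (1.32%). They were Cfi, C2, C8g, F9, Serpind1 and C1s1. Their margins differed: F9 ranged from 192 to 218 CPM in PC and from 225 to 385 CPM in PP, and C8g from 161 to 212 CPM and from 232 to 348 CPM. Serpind1 and C1s1 barely separated. Their highest PC and lowest PP values were 350.9 and 351.8 CPM for Serpind1 and 473.4 and 475.0 CPM for C1s1. Of the 19 calls, 17 were kept in every alternative run. C9 was lost in 3 alternatives and C8a, whose adjusted p was 0.0467 by edgeR, in 16. Without the 3 libraries high in Saa1 the count was 24, with 23 higher in PP. The share of all genes called in that run is not given here, so the rise is not read as particular to these genes.

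Within single states fewer calls were made. The shares of all genes below are those of the main edgeR fit, and those of the alternatives are not given here. In fed mice 4 genes were higher in PP and 0 lower (8.01% of all genes called, 3.89% as higher): C2 (0.86), Cfi (0.70), Serpind1 (0.57) and C8g (0.45, edgeR adjusted p 0.0492, lost in 21 alternatives). This count was 0 without fed PC replicate 1, fed PC replicate 2 or fed PP replicate 1, 2 without fed PP replicate 3, 7 without 8 h PP replicate 1, 8 without fed PC replicate 3, 9 by DESeq2 (7 higher and 2 lower) and 12 without the 3 libraries high in Saa1. At 8 h 12 genes were called, 11 higher in PP and C6 lower at -1.28 (7.14% of all genes called, 3.72% as higher and 3.42% as lower). Of the 11, 7 were clotting genes (F7 at 0.92, F9 and F10 at 0.72, Serpind1 at 0.70, Serpinc1 at 0.50, F12 at 0.46 and F13b at 0.45), and the others were C2 (0.96), Cfi (0.87), C8g (0.70) and C1s1 (0.52). The count was 6 and 7 without 8 h PP replicates 2 and 3, and 5 when only the 2 groups compared were fitted. At 24 h Cfi (0.78) and C8g (0.53) were called (4.17% of all genes called, 1.70% as higher), and the count was 0 without 24 h PC replicate 1, 24 h PC replicate 3 or 24 h PP replicate 3, 1 with a replicate block within each state, 4 without fed PC replicate 3, and 7 by DESeq2. C2 had an adjusted p of 0.0517 by edgeR at 24 h, with a log2 fold change of 0.72. That fewer genes were called at 24 h does not show a smaller zone difference, since the median over the 38 genes came to 0.25 for fed mice, to 0.36 for 8 h and to 0.35 for 24 h.

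The second comparison asked what differed between the feeding states. Contrasts with the 8 h mice also differ in clock hour (21 against 13). The 3 fibrinogen chains stood apart from the other genes. At 8 h against fed, 3 of the 38 genes were called in PC (13.8% of all genes, 7.27% as higher) and 3 in PP (14.4% and 7.56%), in each zone Fga, Fgb and Fgg, and each time as higher. Fga (ENSMUSG00000028001), which encodes the alpha chain, measured 1861, 1824 and 2979 CPM in fed PC libraries and 12203, 4286 and 4404 CPM at 8 h. In PP it went from 3381, 3154 and 2855 CPM to 7007, 8475 and 6528 CPM. Each 8 h library was above each fed library of its zone. Fga rose by 1.65 on the log2 scale in PC (SE 0.32, edgeR adjusted p 0.00273) and by 1.23 in PP (SE 0.32, adjusted p 0.0169).

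Fgb, the beta chain, measured 1849, 1918 and 2560 CPM in fed PC and 8835, 3506 and 3202 CPM in 8 h PC libraries. In PP the values of Fgb were 3043, 3012 and 2373 CPM against 5166, 6937 and 5193 CPM. It rose by 1.30 in PC and 1.04 in PP (edgeR adjusted p 0.0089 and 0.0299). Fgg, the gamma chain, measured 1123, 1277 and 1618 CPM in fed PC and 6505, 2833 and 2564 CPM in 8 h PC libraries. In PP it was at 1995, 2010 and 1528 CPM against 4177, 5475 and 3972 CPM. It rose by 1.57 in PC and 1.30 in PP (edgeR adjusted p 0.00163 and 0.00609). Together the chains took 0.533% to 0.714% of the counts in fed PC and 1.10% to 3.00% in 8 h PC libraries. In PP the share went from 0.700%-0.837% to 1.40%-1.79%.

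**Figure D3:**
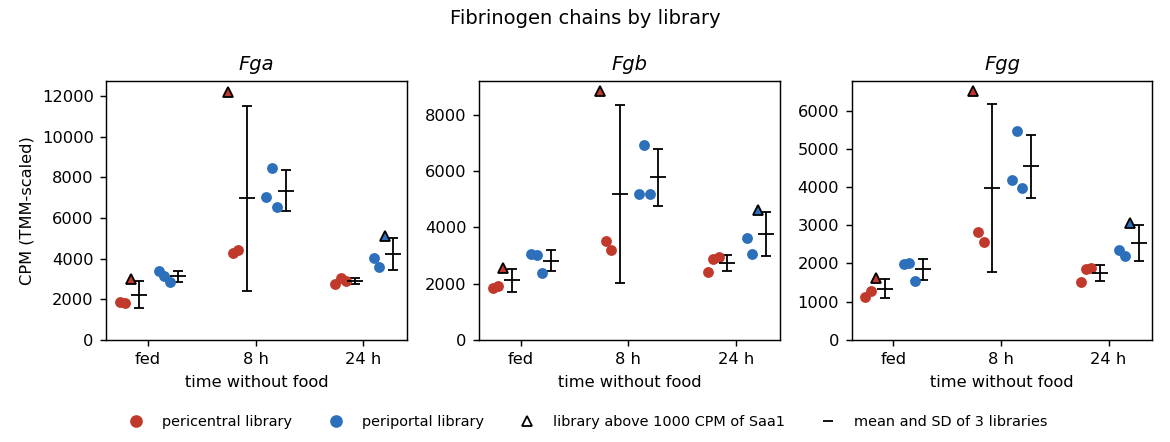
TMM-scaled CPM of Fga, Fgb and Fgg in each library by state, with PC in red and PP in blue, and the mean and SD of 3 libraries. Triangles mark the 3 libraries above 1000 CPM of Saa1. The 8 h points lie above the fed points of the same zone for each chain, and the highest PC point at 8 h is a library high in Saa1.

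The highest fibrinogen library, replicate 1 of 8 h PC, was also the highest in Saa1 (3234 CPM), and replicate 3 of fed PC was the highest of its group in both. Without the 3 libraries high in Saa1 the PC changes at 8 h were smaller and still called, at 1.24 for Fga, 0.83 for Fgb and 1.17 for Fgg (edgeR adjusted p 0.000318, 0.0124 and 0.00219). When only the fed and 8 h PC libraries were fitted, the calls of Fga and Fgb were lost at 1.66 and 1.31 (edgeR adjusted p 0.0705 and 0.0913). In PP, where neither the fed nor the 8 h libraries were high in Saa1, the calls of Fga and Fgb were lost without 8 h PP replicate 2 (1.11 and 0.88), fed PP replicate 2 (1.24 and 1.09) or fed PP replicate 3 (1.17 and 0.93). Fgb was also lost without fed PP replicate 1 (1.10). Fgg was called under each alternative run in both zones.

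At 24 h the mean fibrinogen levels lay between those of fed and 8 h mice. Fga was at 2743, 3041 and 2882 CPM in PC and 4006, 3578 and 5093 CPM in PP, Fgb at 2422, 2860 and 2936 CPM and 3619, 3060 and 4612 CPM, and Fgg at 1512, 1867 and 1872 CPM and 2358, 2197 and 3071 CPM. Against fed, the log2 fold changes were between 0.38 and 0.46 and not called. Against 8 h in PC, Fga was lower by 1.27 and Fgg by 1.18 on the log2 scale (edgeR adjusted p 0.0211 and 0.0164), and Fgb was at -0.92 (adjusted p 0.0677). In this comparison 3 of the 38 genes were called (9.71% of all genes), the third being F5 at 0.41. The count was 0 without 8 h PC replicate 1 or 24 h PC replicate 3 and 1 without 24 h PC replicate 1 or 2. Without 8 h PC replicate 1, Fga was at -0.60 and Fgg at -0.63. In PP 0 genes were called between 24 h and 8 h by edgeR (7.46% of all genes). An unadjusted edgeR p under 0.05 was reached by 5 of the 38, a count not read as a result because the share of all genes is not given here. DESeq2 called 2 and limma-voom 0. Fga was at -0.80, Fgb at -0.62 and Fgg at -0.84.

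The 3 chains are adjacent on chromosome 3 (GRCm38), Fgg at chr3:83007724-83015049 and Fga at chr3:83026076-83033627 on the forward strand, and Fgb at chr3:83040141-83049863 on the reverse strand. Because they moved together at 8 h, their promoters are shown, from 250 bases before to 50 after the RefSeq start (RefSeq GRCm38.p6), 5' to 3' on the strand of the gene. Capitals mark matches, on either strand, to TTCNNNGAA (the STAT motif) or TTGCNNAA (C/EBP).
Fga, chr3:83025903-83026202, forward: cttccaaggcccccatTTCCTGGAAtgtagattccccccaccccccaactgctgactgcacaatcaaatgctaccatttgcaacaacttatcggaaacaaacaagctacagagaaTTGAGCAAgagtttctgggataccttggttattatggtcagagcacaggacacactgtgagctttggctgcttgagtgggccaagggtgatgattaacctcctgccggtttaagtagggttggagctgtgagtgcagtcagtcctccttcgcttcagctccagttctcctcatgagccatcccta
Fgb, chr3:83049814-83050113, reverse: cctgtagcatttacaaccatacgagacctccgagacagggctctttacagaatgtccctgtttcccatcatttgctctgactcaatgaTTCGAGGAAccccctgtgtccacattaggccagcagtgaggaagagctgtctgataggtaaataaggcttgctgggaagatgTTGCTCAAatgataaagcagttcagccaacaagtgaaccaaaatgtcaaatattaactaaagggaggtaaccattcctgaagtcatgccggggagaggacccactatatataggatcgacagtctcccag
Fgg, chr3:83007474-83007773, forward: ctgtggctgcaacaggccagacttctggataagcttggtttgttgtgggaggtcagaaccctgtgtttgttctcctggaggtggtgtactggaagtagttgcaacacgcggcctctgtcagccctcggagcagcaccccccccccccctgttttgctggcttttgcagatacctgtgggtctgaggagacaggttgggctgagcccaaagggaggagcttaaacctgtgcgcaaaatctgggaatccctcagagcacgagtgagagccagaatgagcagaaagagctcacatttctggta
Fga and Fgb each held 1 match to each of these motifs. In Fga the STAT letters lay 234 to 226 bases before the RefSeq start, and in Fgb 162 to 154 bases before it. For Fga this RefSeq start lies inside the gene as placed above, whereas for Fgb the starts coincide. These distances are therefore not measured from like starts. These letters are not in the window of Fgg. A match is a description of the letters and not evidence of a bound site.

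Promoters were found for 30 of the 38 genes (32 windows of 300 bases). The C/EBP letters were in 34.4% of them against 10.8% of all 32851 windows in the table, and the STAT letters in 21.9% against 8.3%. For GTAAACA (FOXO and FOXA) the shares were 3.12% and 3.65%, and CAAAGTCCA (HNF4) was in 0 windows of these genes and 0.475% of all. The STAT letters were also in the windows of C1ra, C8a, F9, Masp2 and Vtn, none of which was called at 8 h against fed in either zone. Other members lie side by side as well. F7 and F10 on chromosome 8 are neighbours, and both were higher in PP. C1ra and C1s1 on chromosome 6 and C8a and C8b on chromosome 4 are neighbours, with 1 of each pair called (C1s1 and C8a). C2 and Cfb on chromosome 17 share a readthrough gene, Gm20547, so reads could have been split between them, and the levels of C4b, C1ra, C1s1 and Kng1 are uncertain because each has a close copy in the genome.

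Beyond fibrinogen, changes against fed were small. Over the mean of both zones at 8 h against fed, 4 genes were called (26.4% of all genes), the 3 fibrinogen chains (1.44, 1.17 and 1.43) and F12 (0.24, edgeR adjusted p 0.0455, lost in 17 alternatives). The median over the 38 genes was 0.17 against 0.01 over all genes, and the count was 8 without fed PC replicate 3. At 24 h against fed, 1 gene was called in PC (21.8% of all genes) and 1 in PP (19.6%). In PC it was F5 (ENSMUSG00000026579), the cofactor of the protease that makes thrombin, at 650.3, 632.5 and 635.7 CPM in fed and 884.1, 797.3 and 877.0 CPM in 24 h libraries. The groups did not overlap, and F5 rose by 0.42 (SE 0.12, edgeR adjusted p 0.0211). In PP, F5 was at 663.6, 521.1 and 593.8 CPM against 690.6, 538.1 and 751.3 CPM, with a log2 fold change of 0.15 that was not called. The PC call was lost without fed PC replicate 1 (0.42), 2 (0.40) or 3 (0.41), or 24 h PC replicate 1 (0.38) or 3 (0.39).

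In PP the call at 24 h was F12, which starts the contact pathway, at 537.6, 517.5 and 543.7 CPM in fed and 637.7, 632.0 and 763.2 CPM in 24 h libraries. F12 rose by 0.35 (SE 0.12, edgeR adjusted p 0.0476), a call that was lost in 18 alternatives, among them leaving out the 3 libraries high in Saa1 (0.25). In PC it was at 403.5, 412.4 and 542.7 CPM against 541.7, 524.2 and 532.8 CPM, and the groups overlapped. Over the mean of both zones at 24 h, 3 genes were called (34.5% of all genes): F12 (0.29, called under each alternative run), F5 (0.29, lost without fed PP replicate 2 at 0.24 and without the libraries high in Saa1 at 0.23) and the lectin Mbl2 (0.22, edgeR adjusted p 0.0441, lost in 15 alternatives). This count was 5 without 8 h PC replicate 1 or 8 h PP replicate 1, and 1 without fed PP replicate 2. The share of these genes called in either direction at 8 h and 24 h against fed was therefore below that of all genes.

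**Figure D4:**
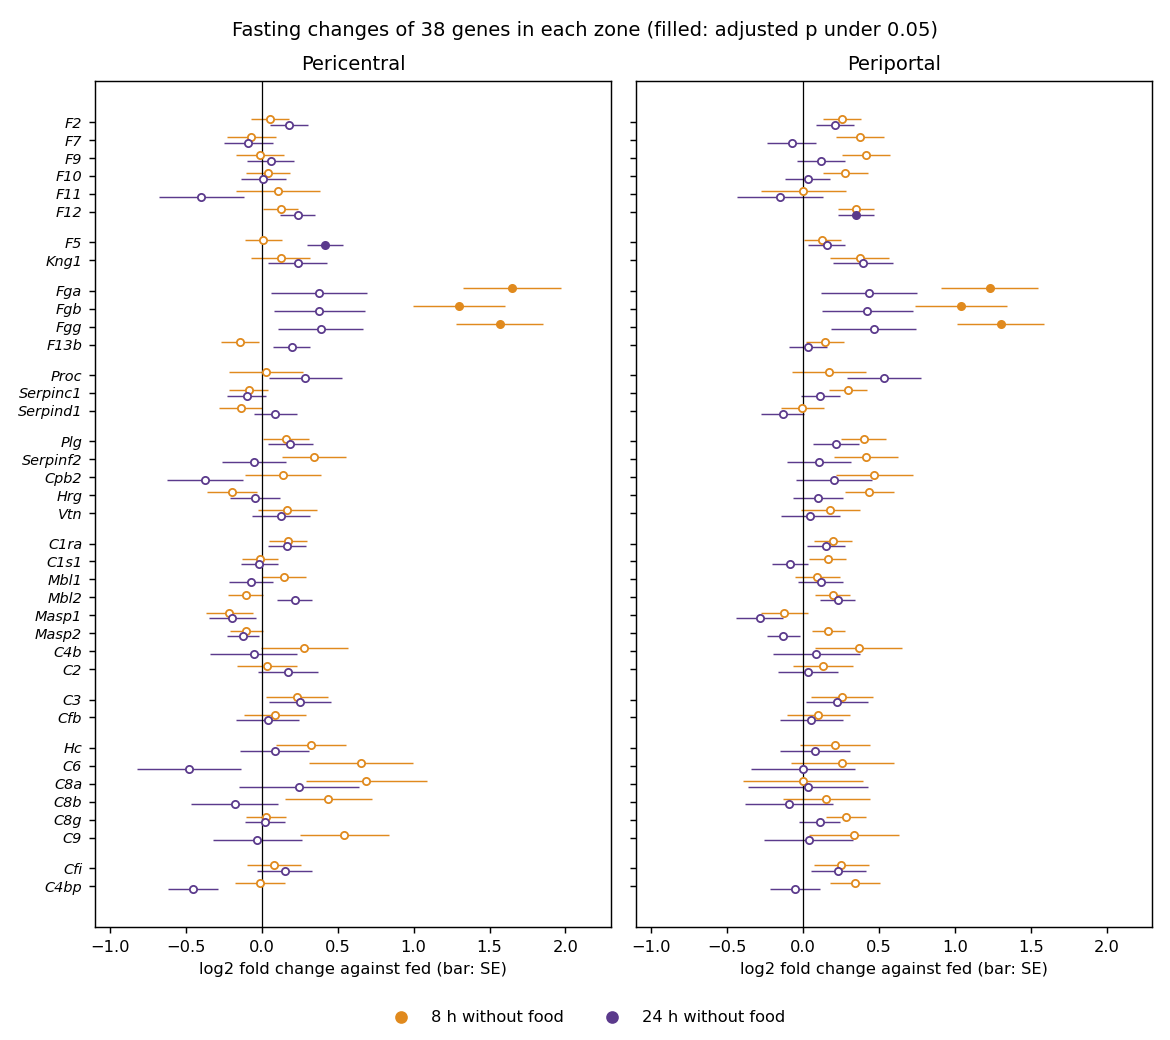
Log2 fold change against fed of each of the 38 genes at 8 h (orange) and 24 h (purple), in PC on the left and PP on the right. Points are edgeR estimates, bars their SE, and filled points have an adjusted p under 0.05. The fibrinogen chains at 8 h lie between 1.04 and 1.65, and the other filled points are F5 in PC (0.42) and F12 in PP (0.35) at 24 h.

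Whether the change between states differed between the zones was tested as the PP change minus the PC change. By edgeR 0 of the 38 genes were called from fed to 8 h, from fed to 24 h or from 8 h to 24 h, where 0%, 0.0160% and 0% of all genes were called. Without adjustment, 2, 0 and 3 of the 38 genes had an edgeR p under 0.05. The share of all genes at this unadjusted p is not given here, so these counts are not read as a result. DESeq2 and limma-voom called 0 in each. For fibrinogen the difference from fed to 8 h was -0.42 for Fga (SE 0.45), -0.26 for Fgb (SE 0.42) and -0.27 for Fgg (SE 0.40), so differences of this size could not be resolved. The largest in size among the 38 genes were those of C8a at -0.69 (SE 0.56) and of Hrg, which binds heparin and plasminogen, at 0.63 (SE 0.23), with edgeR adjusted p of 0.972 and 0.909, both picked after their values were seen. For F5 the difference from fed to 24 h was -0.26 (SE 0.17), so its PC call was not shown to differ from PP.

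Other clotting genes, 26 listed and 19 tested, were followed for the steps around the factors themselves. At 24 h against fed over both zones 6 of the 19 were called lower and 0 higher. Counted in either direction, this is close to the 34.5% of all genes called in that comparison. The share of all genes called lower is not given here, so the direction of the 6 is not compared with genes in general. Ggcx, the carboxylase that makes the vitamin K dependent factors functional, measured 31.4, 27.5 and 31.2 CPM in fed PC and 19.9, 16.7 and 11.8 CPM in 24 h PC libraries. In PP it went from 32.7, 25.8 and 27.8 CPM to 14.8, 14.8 and 15.6 CPM. The 24 h libraries lay below the fed ones in each zone, and Ggcx fell by 0.91 over both zones (SE 0.10, edgeR adjusted p 3.71e-06), with -0.89 in PC and -0.93 in PP. Lman1 and Mcfd2 encode the cargo receptor that carries factors V and VIII out of the endoplasmic reticulum, and they fell by 0.72 and 0.66 (edgeR adjusted p 9.63e-06 and 3.61e-05). Vkorc1l1, a vitamin K epoxide reductase named after its values were seen, was at -0.54 and Habp2, likewise, at -0.30. Vkorc1, the other vitamin K epoxide reductase of the list and also named afterwards, did not fall. It was at 0.04 and not called (edgeR adjusted p 0.778). Serpina5 was at -2.32 with at most 4.29 CPM in any library. Pros1, which encodes protein S, the cofactor of protein C, was lower in PP by 0.60 over the 3 states (SE 0.13, edgeR adjusted p 0.00338), and did not pass the test with fasting. Of the 19 genes 2 were called the other way between the zones, Hgfac, the activator of hepatocyte growth factor, higher in PP by 0.62 (SE 0.08, edgeR adjusted p 1.25e-05) and Lman1 by 0.36 (edgeR adjusted p 0.00152), in a comparison that called 20.3% of all genes.

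**Figure D5:**
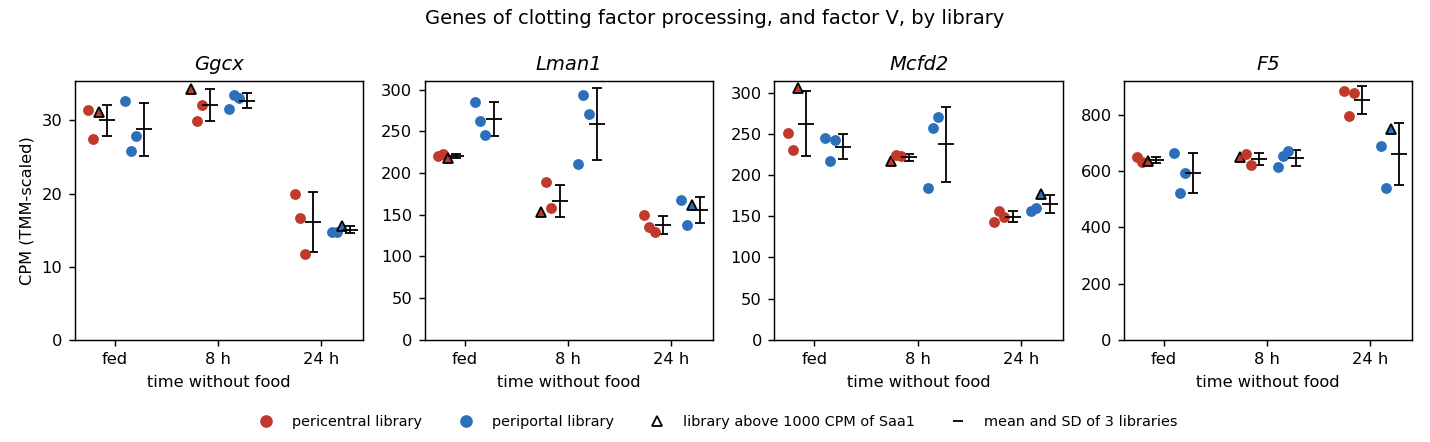
TMM-scaled CPM of Ggcx, Lman1, Mcfd2 and F5 in each library by state, with PC in red and PP in blue, and the mean and SD of 3 libraries. Triangles mark the 3 libraries above 1000 CPM of Saa1. At 24 h the Ggcx, Lman1 and Mcfd2 points lie below the fed points of both zones, while F5 in PC lies above its fed points.

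The lists that follow were described by count. Of 20 other complement genes 16 were tested, and 7 were called higher and 1 lower in PP over the 3 states, where 20.3% of all genes were called. The largest fold changes belonged to genes at or under 4.19 CPM: Colec10 (3.07), C1qb (2.45), Fcna (2.14) and Cd55 (2.13). C1qb and Fcna are known as macrophage genes, and the summed Kupffer cell and leukocyte markers given above moved the same way. Their part in these calls was not tested. Serping1, the inhibitor of the C1 proteases, was at 0.19 without a call.

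Of 20 acute-phase genes, all tested, 5 were called higher at 8 h and 3 at 24 h over both zones, and 0 lower. All genes were called in 26.4% and 34.5% of cases in these comparisons, so in either direction the list was not called more often than genes in general. Il6ra, the interleukin 6 receptor, rose by 1.30 at 8 h and 1.43 at 24 h, Il1r1 by 1.96 and 1.34, Lbp by 0.96 and 0.86, and Stat3 by 0.61 at 8 h (edgeR adjusted p 0.00594). Il6ra ranged from 9.61 to 17.4 CPM in the 6 fed libraries and from 17.9 to 51.9 CPM in the 12 fasted ones. Il6ra and Lbp were called at 24 h, when fibrinogen was not. Saa1 itself was not called at 8 h (0.71, SE 1.57). Of 15 liver transcription factors, Hnf4a was at 0.26 at 8 h without a call and rose by 0.56 at 24 h, Cebpd rose by 2.02 and 2.55, and Foxo1 by 0.74 and 1.32. Cebpa fell by 0.55 and 0.56. At 24 h Cebpa was at -0.21 in PC without a call and at -0.90 in PP (edgeR adjusted p 0.0103), and this difference between the zones was not called. Onecut1 fell by 2.0 at 24 h. At 24 h over both zones 6 of the 15 were called higher and 5 lower, where 34.5% of all genes were called. Nr0b2 was the only factor of the 15 called over the zone mean, at 1.35 higher in PP, where 20.3% of all genes were called.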

How the data were processed

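RNA was extracted from hepatocytes with a column kit and TRIzol and sequenced with the NEBNext Ultra kit, per the labels' protocols. The authors deposited 1 table of estimated counts (expected counts) per Ensembl gene for 18 libraries. The submitters' processing notes name kallisto 0.46.0 and mm10, without their roles, and the use of strand is not given in the sources used here. Counts summed to 18359911 to 26384358 per library, which together with 3 libraries a group limits the precision. They were rounded to whole counts. Of 28030 genes, 12477 passed filterByExpr, all 38 members among them, and held at least 99.95% of the counts.

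A single edgeR 4.0.16 quasi-likelihood fit (robust, TMM, R 4.3.3) held 1 coefficient for each of the 6 groups and gave 15 contrasts. P-values were adjusted by Benjamini-Hochberg over all genes tested and called under 0.05. The SE is the log2 fold change divided by the square root of F. CPM use the TMM factors. Replicates of 1 group differed by far more than sampling noise. The fit was tested on simulated counts with 200 changed genes. Alternatives were DESeq2 size factors, no low-count filter, a mean of 1 CPM, only the groups compared, a replicate block, scaling without the 20 most abundant genes or without the members, DESeq2 1.42.0, limma-voom (limma 3.58.1) and leaving out each library. Leaving out the 3 libraries high in Saa1 and, for the zones, a replicate block within each state were added after seeing the data.

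Members and lists were chosen with earlier results of these data known. By rule, every library is given for fibrinogen and for the 3 members with the largest log2 fold change among those called over the zone mean and in each fasting contrast of a zone, and up to 4 called genes of each other list are named, besides Serping1, Pros1, Hnf4a and Cebpa. Some genes that this rule names are not reported here. Coordinates are from GENCODE M21 (GRCm38, the same assembly as mm10).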

Additional observations from a re-analysis of the deposited data

How the results depend on the processing

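The 55 calls of a member in a comparison were recomputed under each alternative, and uncalled values were not followed. Of the 1558 resulting values 0 changed sign and 192 lost the call, and 27 of the 55 calls were kept under every alternative run. The scaling alternatives shifted the mean log2 scaling factor between the groups compared by at most 0.014 in size. This was computed for the zone mean and for each contrast against fed within a zone. Counts of members called moved by more than 1.5 times as follows. The shares of all genes called under these alternatives are not given here, so the shifts are not read as particular to the members. By DESeq2 they were 9 for the zones in fed mice, 7 at 24 h, 6 at 8 h against fed in PP, 2 at 24 h against fed in PC, 6 at 24 h against 8 h in PC and 2 in PP. Fitting only the groups compared gave 5 for the zones at 8 h, 2 and 0 at 24 h against fed in PC and PP, 6 over both zones and 0 at 24 h against 8 h in PC. Without a low-count filter the count at 24 h against fed in PP was 0. Without the 3 libraries high in Saa1 the counts were 12 and 0 for the zones in fed and 24 h mice, 6 at 8 h against fed in PP, 5, 0 and 5 at 24 h against fed in PC, PP and over both zones, and 1 and 3 at 24 h against 8 h in PC and PP.

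Leaving out single libraries gave ranges of 0 to 8 (zones, fed), 6 to 14 (8 h), 0 to 4 (24 h) and 17 to 22 (mean of states). Against fed they were 3 to 3, 1 to 9 and 3 to 8 at 8 h (PC, PP, both) and 0 to 2, 0 to 1 and 1 to 5 at 24 h. Between 24 h and 8 h they were 0 to 4 in PC and 0 to 3 in PP, and the zone differences stayed at 0. The 9 at 8 h in PP came without 8 h PP replicate 1, and the 1 without 8 h PP replicate 2 or fed PP replicates 2 or 3. The 2 at 24 h in PC came without 24 h PC replicate 1 or 8 h PP replicates 1 or 2, and the 0 without 24 h PC replicate 3 or fed PC replicates 1 or 2. The 0 at 24 h in PP came without any 1 of 15 libraries. The 3 at 24 h against 8 h in PP came without 8 h PC replicate 1 or 8 h PP replicate 1. The cause of these shifts was not tested.

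Whether replicate numbers pair the PC and PP libraries of a state is not settled. Deviations from the group mean correlated at -0.033 to -0.008 for equal numbers in fed mice (-0.088 to 0.102 for other numbers), at 0.024 to 0.123 at 8 h (-0.166 to 0.104) and at 0.099 to 0.228 at 24 h (-0.22 to 0.075). Of 6 libraries in each state, 0, 2 and 6 correlated best with their own number, a hint from the data at 24 h and not from the design. With 1 replicate block across all states the counts were 4, 13, 2 and 20 for the zones (fed, 8 h, 24 h, mean), and no count moved by over 1.5 times. With a replicate block within each state, added after seeing the data, they were 3, 12, 1 and 18, and the call of Cfi was lost in fed mice at 0.72 and in 24 h mice at 0.77 (0.0548 and 0.0676 as adjusted p by edgeR). Depth limits the genes under about 1 CPM among the other lists.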

Other observations

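The 38 genes tended to be highest together in 1 library of a group, as a description of these libraries. In fed PC, replicate 3 held the highest of the 3 values for 33 of the 38 genes (86.8%, against 35.1% of all genes tested), and in 24 h PP replicate 3 held it for 31 (81.6% against 32.7%). Both are high in Saa1. The same was seen in 2 libraries that are not. In 8 h PP replicate 2 (87.0 CPM of Saa1) the count was also 31 (81.6% against 30.3%), and in fed PP replicate 1 (27.6 CPM of Saa1) it was 27 (71.1% against 35.2%). In 8 h PC replicate 1, the library with the most Saa1, it was 21 (55.3% against 34.5%), and there the clotting proteases F2, F9, F11 and F12 were highest in another library. In 24 h PC no library held most of the genes, with 18 in replicate 2, 13 in replicate 1 and 7 in replicate 3. In 24 h PP replicate 2, 0 of the 38 genes were at their highest. The counts share libraries and genes are not independent replicates, so no test is given.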
